A study of Mus musculus with 11 samples.

Results

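Ribosome biogenesis was followed through 34 genes of nucleolar, RNA polymerase I, polyamine and nucleotide synthesis proteins and the mitochondrial chaperonin, all named from a list of genes commonly placed downstream of Myc. All 34 were found by symbol among the 28284 genes counted. The rule named the genes and used no level, though the list was drawn up with earlier results of these data known. The question asked was how the level of each gene related to that of Myc across 11 mouse cell lines and within the 7 lines of libraries 1 to 7.

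The lines were grown ex vivo from OvTrpMyc mice, in which the Ovgp1 promoter, chosen for its activity in the secretory cells of the oviduct, drives p53-R270H and Myc (genotype Ovgp1-Trp53-R270H-Myc, on C57BL/6). All lines carried this genotype, were untreated and were dividing in RPMI 1640, so no line without the transgene served as a control. There were 7 lines of ovarian origin (F318 LOV and ROV, F364 LOV and ROV, F339 ROV, F326 ROV and F319 ROV), 2 from a uterus (F319 uterus, F333 uterus), 1 from a splenic tumor (F326) and 1 from a peritoneal tumor (F361). They came from 7 mice, with 1 library per line, and ROV and LOV were taken as the right and left ovary. By the study's methods, the cells of line F361 had lost expression of the mutant p53. Age was not among the labels used here. Reads from the transgene's Myc coding sequence and from the endogenous gene were counted together.

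Ribosome production starts in the nucleolus, where RNA polymerase I copies the ribosomal DNA. The transcript is then cleaved, modified at sites chosen by small nucleolar RNAs and folded into a small and a large subunit by assembly factors that do not stay in the finished ribosome. Myc is known to bind the promoters of many of these genes, often at the E-box CACGTG, and to raise ribosome, polyamine and nucleotide production in growing cells.

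Libraries 1 to 7 and 8 to 11, numbered as in the sample descriptions, stood apart and were treated as 2 sets. Library totals were 13580525 to 27044598 counts. In libraries 1 to 7, 43 genes of the skeletal muscle fiber took 8.27% to 16.1% of all counts, against 0.251% to 1.46% in libraries 8 to 11, and 4 Y-linked genes summed to 128 to 174 CPM (counts scaled to a library total of 1000000) against 1.75 to 19.2 CPM. Skeletal muscle and Y-linked transcripts are not what lines from ovaries and uteri would hold, so in this respect all 11 libraries went against their labels, those of 1 to 7 far more than those of 8 to 11, where F318 LOV had the least of both; this touches each set difference and each slope, and its part in them was not tested. The labels call the lines ovarian or uterine cancer; 9 epithelial marker genes summed to 3.42 to 159 CPM in libraries 1 to 7 and from 10.2 to 43.4 CPM in 8 to 11, and 9 fibroblast and mesenchymal markers to 977 to 12824 and 14325 to 23522 CPM, respectively. The sum of 7 leukocyte markers was 12.7 to 22.5 CPM in libraries 1 to 7 and from 4.32 to 7.91 CPM in 8 to 11, without overlap, and that of 5 endothelial markers was 68.1 to 299 CPM and from 2.62 to 72.6 CPM. Both uterus lines were in libraries 8 to 11 and both tumor lines in 1 to 7, so organ and library set were partly confounded. In bulk RNA, fewer cells of a type and less RNA per cell cannot be told apart.

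Promoter windows were searched for the E-box, a site that Myc is known to bind, but binding itself was not measured. RefSeq windows on GRCm38.p6, from 250 bases before to 50 after a transcription start, were on hand for 27 of the 34 genes. CACGTG, which reads the same on both strands, was in the window of 7 of these 27 genes (25.9%), namely Hspd1, Mybbp1a, Nop2, Pes1, Rrn3, Utp20 and Wdr43, beside 8.09% of all 27025 genes with a window. The related CACGCG, searched with its reverse complement CGCGTG, was in 11 of 27 (40.7%), beside 10.5% of all genes. 4 windows are shown, of genes picked for their slopes on Myc described further on: Cad and Utp20 had the steepest slopes within libraries 1 to 7, Nop2 the steepest among the modification genes, and Rrn3 the flattest among the RNA polymerase I genes. CACGTG is in capitals, and each window is written 5′ to 3′ on the strand of its gene.
Cad (chr5:31054530-31054829, plus strand): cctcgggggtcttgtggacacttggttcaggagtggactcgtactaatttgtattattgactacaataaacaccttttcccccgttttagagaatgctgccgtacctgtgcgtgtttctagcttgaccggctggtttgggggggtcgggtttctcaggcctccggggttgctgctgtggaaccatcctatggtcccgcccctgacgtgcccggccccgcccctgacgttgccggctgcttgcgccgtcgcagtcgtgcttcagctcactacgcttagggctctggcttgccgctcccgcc
Utp20 (chr10:88826765-88827064, minus strand): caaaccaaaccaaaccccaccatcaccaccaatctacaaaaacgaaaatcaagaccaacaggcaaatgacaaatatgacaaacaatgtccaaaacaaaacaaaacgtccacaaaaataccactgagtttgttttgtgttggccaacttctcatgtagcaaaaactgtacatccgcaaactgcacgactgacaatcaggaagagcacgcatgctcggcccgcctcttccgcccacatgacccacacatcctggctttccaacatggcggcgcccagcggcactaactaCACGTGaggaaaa
Nop2 (chr6:125131633-125131932, plus strand): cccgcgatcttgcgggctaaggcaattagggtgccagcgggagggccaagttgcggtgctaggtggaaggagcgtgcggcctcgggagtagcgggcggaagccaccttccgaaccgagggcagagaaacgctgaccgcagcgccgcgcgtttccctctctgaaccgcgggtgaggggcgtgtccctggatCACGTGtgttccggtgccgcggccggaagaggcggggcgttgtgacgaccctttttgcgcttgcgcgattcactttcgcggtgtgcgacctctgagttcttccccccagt
Rrn3 (chr16:13780449-13780748, plus strand): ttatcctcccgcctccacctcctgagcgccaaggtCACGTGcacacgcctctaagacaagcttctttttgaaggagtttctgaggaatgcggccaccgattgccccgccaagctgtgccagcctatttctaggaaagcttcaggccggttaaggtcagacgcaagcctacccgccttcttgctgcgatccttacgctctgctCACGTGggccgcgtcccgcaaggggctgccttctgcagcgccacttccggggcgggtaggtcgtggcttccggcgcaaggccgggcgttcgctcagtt
Utp20 held 1 CACGTG, starting at base 38 of its transcript, Nop2 held 1, starting 60 bases before the start site, and Rrn3 held 2, starting 215 and 48 bases before it. Cad held neither CACGTG nor CACGCG in this window. Sequence outside the windows was not searched for any gene, so a gene without CACGTG here may hold one elsewhere. Within libraries 1 to 7 the median slope was 0.28 for the 7 genes with CACGTG (range 0.04 to 0.50) and 0.26 for the 20 genes whose window lacked it (-0.14 to 0.59), in log2 units of level per log2 unit of Myc. The groups overlapped nearly throughout.

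Myc itself spanned a wide range. It was lowest in the F361 peritoneal tumor line, at 6.92 CPM from 94 counts (95% Wilson interval 5.66 to 8.47, counting error only), then 22.2 CPM in the F326 splenic tumor line, 31.8 in F326 ROV, 50.2 in F364 LOV, 53.3 in F364 ROV, 55.3 in F319 ROV and 93.6 in F318 ROV. Libraries 8 to 11 were all higher, at 153 CPM in F333 uterus, 184 in F339 ROV, 280 in F318 LOV and 291 in F319 uterus.

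Together the 34 genes took a larger share of the counts in the lines with more Myc. The share was 0.186% in F361, 0.222% in F326 ROV, 0.335% in the F326 splenic tumor line, 0.328% in F319 ROV, 0.374% in F364 LOV, 0.380% in F364 ROV and 0.430% in F318 ROV. It was 0.577% in F339 ROV, 0.629% in F333 uterus, 0.797% in F319 uterus and 0.845% in F318 LOV. The mean was 0.712% ± 0.129 (SD, n = 4) in libraries 8 to 11 and 0.322% ± 0.0880 (SD, n = 7) in 1 to 7, and no line of one set reached the other. With the muscle fiber genes taken out of the total, the shares were 0.222% to 0.469% and 0.584% to 0.847%, and the sets still did not overlap. F361 was the lowest line for 24 of the 34 genes, and F318 LOV the highest for 18 and F319 uterus for 13.

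**Figure D1:**
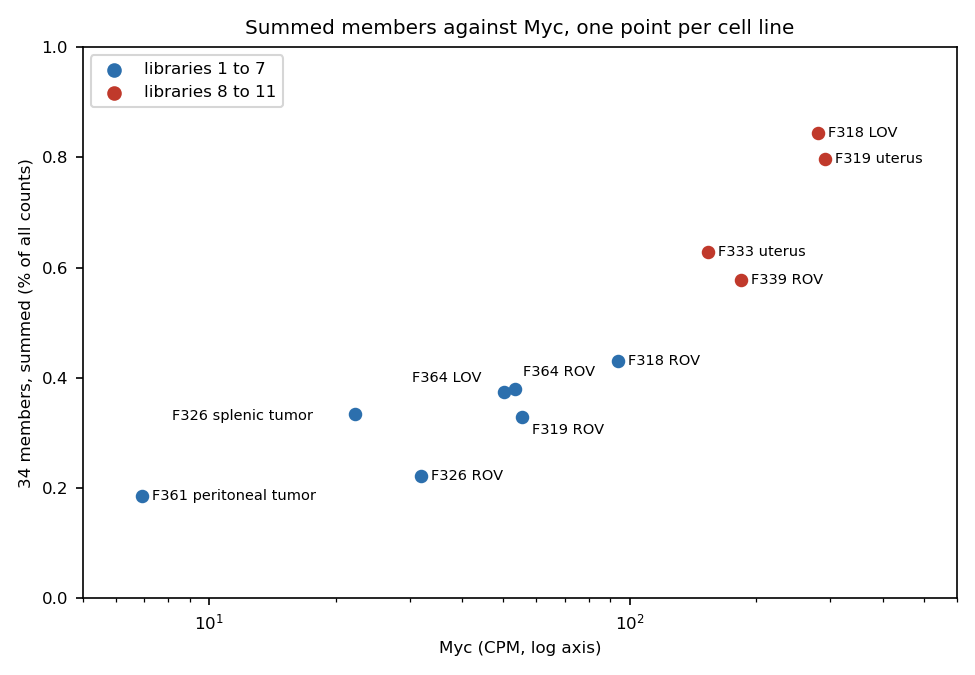
Summed counts of the 34 genes as a percent of all counts (vertical axis) against Myc in CPM (horizontal, log axis), one point per cell line, with libraries 1 to 7 in blue and 8 to 11 in red. The blue points run from 0.186% to 0.430% and the red points from 0.577% to 0.845%, with a gap in Myc between 93.6 and 153 CPM.

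Taken gene by gene, 23 of the 34 had a higher CPM in each line of libraries 8 to 11 than in any line of 1 to 7, and 0 were lower in each. Among the 8889 genes at or above the lowest median level of the 34, 31.7% were higher in this sense and 18% lower, since the sets differed across the transcriptome. The 11 genes whose sets overlapped were Polr1b, Ubtf, Rrp9, Nat10, Noc4l, Rrp12, Pes1, Rrs1, Gnl3, Odc1 and Hspe1. In edgeR's quasi-likelihood test after TMM scaling (which assumes that most genes keep their level), with Benjamini-Hochberg adjustment over all 15954 genes tested and a threshold of 0.05, 22 of the 34 were higher in libraries 8 to 11, beside 28.6% of all genes, and 1, Rrp12, was lower, beside 29.9%. The median log2 difference was 0.74 for the 34 and 0.03 for all genes. The p-values measure the spread between single lines, and lines of the same mouse entered as separate lines. With mouse as a fixed block, a fit in which the contrast rests on mice F318 and F319 alone, 7 of the 34 were higher (Nop58, Nop56, Hspd1, Dkc1, Wdr12, Utp20 and Cad), beside 4.27% of 18554 genes, and 0 were lower, with a median of 0.88 and 31 differences above 0.

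The same order showed as a slope on Myc. Over all 11 lines, the fitted slope of log2 level on log2 Myc CPM was past the threshold for 24 of the 34 genes, all rising with Myc, beside 26.1% of 16533 genes rising and 24.9% falling (without F361, 22 rose and 1, Rrp12, fell); the median slope was 0.27, against 0.00 for all genes. With mouse as a fixed block, so that only the 4 pairs of lines from 1 mouse bear on the slope, 0 of the 34 were past the threshold, beside 5.58% of 18554 genes, 14 had an unadjusted p under 0.05 (background 31.1%) and 30 slopes were above 0, with a median of 0.35. Since Myc did not overlap between the sets, this slope and the difference between the sets rest largely on the same gap. With a term for the library set, 0 of the 34 were past the threshold (background 1.85% of 17317 genes) and 18 had an unadjusted p under 0.05 (background 18.5%), with a median slope of 0.28 and 31 slopes above 0. Leaving out F361, the line with the least Myc, gave that fit a median of 0.20, with 26 above 0 and 5 at an unadjusted p under 0.05 (background 9.13%), and 0 of 17333 genes were then past the threshold. Within libraries 1 to 7, again 0 were past it (0.988% of 16299 genes) and 17 had an unadjusted p under 0.05 (20%), with a median slope of 0.27, beside 0.01 for all genes, and 31 above 0. DESeq2's Wald test was past the threshold for 10 of the 34 with the set term, beside 9.25% of genes, and for 4 within libraries 1 to 7 (Cad, Utp20, Nop2 and Ppan), beside 10.9%. Leaving out F361 lowered the median slope within libraries 1 to 7 to 0.15, with 27 above 0 and 3 of the 34 at an unadjusted p under 0.05, a share near the 8.96% of all 16046 genes. In that fit 0 of all genes passed edgeR's test, as was also the case when F364 ROV, F364 LOV or F319 ROV was left out.

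The median slope within the sets changed sign when only lines of the same mouse were compared, a comparison of few pairs. With mouse as a fixed block, the median slope within libraries 1 to 7 was -0.78, and that of Cad -0.53, with 8 of the 34 above 0 and 0 past the threshold (1.53% of 17426 genes). This fit has 1 residual degree of freedom, and its slope rests on the pairs F326 and F364, in which Myc differed little. The log2 difference in Myc was 0.52 in F326 (ROV minus splenic tumor) and -0.088 in F364 (LOV minus ROV). The slope thus rests mostly on F326. In F364 both Myc and the median of the 34 genes were lower in LOV. With the set term and the block the median was -0.25, with 11 above 0 and 0 past the threshold (0% of 18554 genes).

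As a description of the 7 lines, which share mice and were scaled by their own totals, the mean log2(CPM + 1) of the 34 genes had a Pearson r of 0.91 and a Spearman rho of 0.86 with log2 Myc. Without F361 these were 0.77 and 0.77 (6 lines). With TMM scaling of the members they were 0.80 and 0.50, and without F361 as well 0.50 and 0.20. By library totals again, without F361 and the F326 splenic tumor line, r was 0.92 and rho 0.70 over 5 lines. These 2 lines were the farthest from the median Myc. The 5 lines were not examined with TMM scaling. For the mean level of 21 proliferation genes, r was 0.97 and rho 0.89 over the same 7 lines. The muscle share was highest in F361, at 16.1%, and lowest in F318 ROV, at 8.27%, the lines with the least and the most Myc there; between these it did not follow the order of Myc, with 12.9% in the F326 splenic tumor line, 15.5% in F326 ROV, 14.6% in F364 LOV, 15.1% in F364 ROV and 13.3% in F319 ROV. Their part in the members' slopes was not tested.

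**Figure D2:**
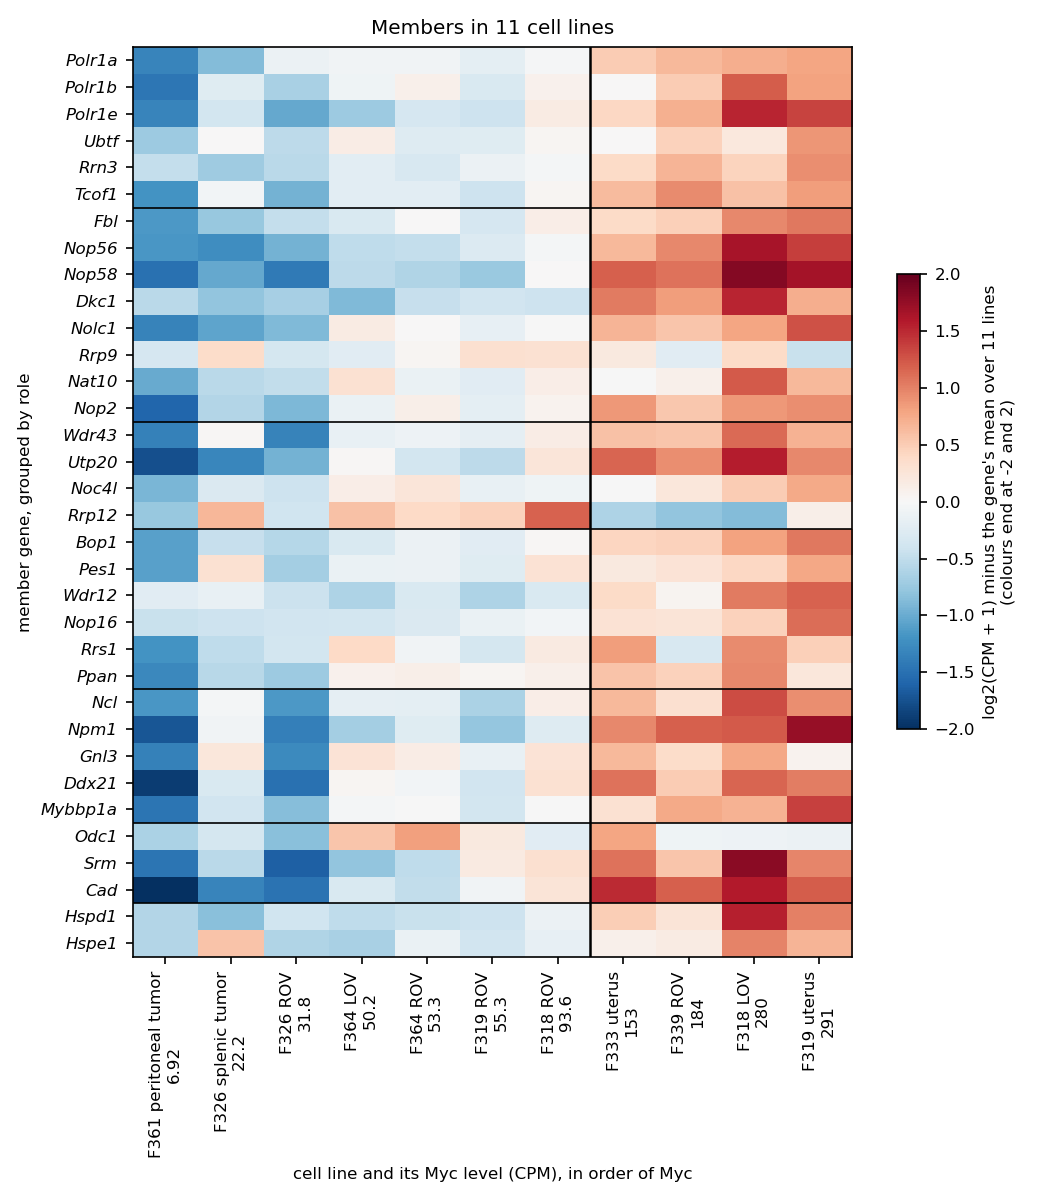
Level of each of the 34 genes (rows, grouped by role) in the 11 lines (columns, in order of Myc, whose CPM stands under each name), as log2(CPM + 1) minus the gene's mean over the lines; red is higher and blue lower, and the vertical line separates libraries 1 to 7 from 8 to 11. Most rows turn from blue in F361 to red in the last 4 columns, while in the last 4 columns Rrp12 is lower than in most others and Rrp9 and Odc1 overlap with the first 7.

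Of the 6 genes of ribosomal DNA transcription, 4 were higher in libraries 8 to 11, beside 28.6% of all genes. Polr1e, a subunit of RNA polymerase I and the least abundant of the 34 in median CPM, ranged from 5.38 to 16.8 CPM (median 10.97) in libraries 1 to 7 and stood at 25.0 CPM in F339 ROV, 44.9 in F318 LOV, 39.6 in F319 uterus and 20.3 in F333 uterus. The sets did not overlap, and the log2 difference of 1.30 ± 0.28 (SE; edgeR adjusted p = 0.00192) was the largest of the 6. Rrn3, which brings the polymerase to the promoter, ranged from 45.4 to 73.0 CPM (median 59.9) and was 144, 103, 121 and 98.1 CPM in F319 uterus, F318 LOV, F339 ROV and F333 uterus. Its difference between the sets was 0.60 ± 0.15 (adjusted p = 0.00559), and within libraries 1 to 7 its slope on Myc was 0.06 ± 0.08, and 0.20 without F361, which was not its lowest line at 53.8 CPM. Polr1a, the largest subunit, and Tcof1, the nucleolar protein treacle, also rose in libraries 8 to 11 (0.64 ± 0.22 and 0.77 ± 0.22, adjusted p = 0.028 and 0.010).

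Polr1b, the second catalytic subunit, showed the steepest slope of this group within libraries 1 to 7, at 0.34 ± 0.13 (unadjusted p = 0.032, edgeR adjusted p = 0.207). It was 13.0 CPM in F361 and 40.1 in F364 ROV, with a median of 31.4, and 65.7, 87.4, 53.4 and 37.3 CPM in F319 uterus, F318 LOV, F339 ROV and F333 uterus, so that F333 uterus fell inside the range of libraries 1 to 7. Without F361 its slope was 0.09. Ubtf, which binds the ribosomal DNA, differed least of the 6 between the sets, with a log2 difference of 0.24 ± 0.21 (adjusted p = 0.338). It lay between 101 and 186 CPM in libraries 1 to 7 and between 168 and 309 CPM in 8 to 11.

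Among the 8 genes of small nucleolar ribonucleoproteins and ribosomal RNA modification, 6 were higher in libraries 8 to 11 (28.6% of all genes). Nop58 and Nop56, paired core proteins of the box C/D particles that guide ribose methylation, had the largest differences, 1.90 ± 0.25 (adjusted p = 0.000124) and 1.47 ± 0.23 (adjusted p = 0.000301). Nop58 ranged from 29.1 to 84.7 CPM (median 49.9) in libraries 1 to 7 and was 180 CPM in F339 ROV, 301 in F318 LOV, 268 in F319 uterus and 194 in F333 uterus; its lowest value in libraries 8 to 11 was thus well above its highest in 1 to 7. Fbl, the methyltransferase of the same particles, rose less, by 0.78 ± 0.22 (adjusted p = 0.0103). Nolc1, a chaperone of these particles, rose by 0.86 ± 0.28 (adjusted p = 0.0203).

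Dkc1, the pseudouridine synthase of the box H/ACA particles, separated the sets. It was 29.6 to 41.9 CPM in libraries 1 to 7, with 37.6 CPM in F361 as its median, and then 91.9, 159, 99.4 and 114 CPM in F319 uterus, F318 LOV, F339 ROV and F333 uterus. The difference was 1.31 ± 0.18 (adjusted p = 0.000145) and the slope within libraries 1 to 7 was -0.03 ± 0.08 after TMM scaling; over these 7 lines its log2 CPM by library totals had a Spearman rho of 0.64 and a Pearson r of 0.24 with Myc. Nop2, an rRNA cytosine methyltransferase, had the steepest slope there, 0.41 ± 0.12 (edgeR adjusted p = 0.131, DESeq2 0.0188): it was 26.7 CPM in F361, 71.6 at the median and 88.4 in F364 ROV, and 157, 149, 119 and 150 CPM in F319 uterus, F318 LOV, F339 ROV and F333 uterus.

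The other 2 members of this group were not called between the sets. Rrp9, a protein of the small nucleolar particle for small subunit processing, varied least of all 34 genes, from 45.7 CPM in F319 uterus to 81.3 in F318 LOV (1.78-fold), with a log2 difference of -0.38 ± 0.22 (adjusted p = 0.149). Nat10, the rRNA cytidine acetyltransferase, was 24.9 to 63.3 CPM in libraries 1 to 7 and from 50.6 to 121 CPM in 8 to 11, with a difference of 0.44 ± 0.28 (adjusted p = 0.188).

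Of the 4 small subunit assembly genes, 2 were higher and 1 was lower in libraries 8 to 11, beside 28.6% and 29.9% of all genes. Utp20, a large scaffold of the small subunit processome, was 15.4 CPM in F361, 21.5 in the F326 splenic tumor line, 28.0 in F326 ROV, 37.8 in F319 ROV, 42.0 in F364 ROV, 55.2 in F364 LOV and 64.4 in F318 ROV. In libraries 8 to 11 it was 105 CPM in F339 ROV, 164 in F318 LOV, 108 in F319 uterus and 123 in F333 uterus. Both the difference, 1.38 ± 0.32 (adjusted p = 0.00295), and the slope within libraries 1 to 7, 0.50 ± 0.12 (edgeR adjusted p = 0.084, DESeq2 0.00418), were the largest of these 4 genes, and without F361 the slope was 0.62.

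Rrp12, which takes part in the maturation and export of both subunits, went the other way between the sets. It was 122 CPM in F364 ROV, 148 in the F326 splenic tumor line, 140 in F364 LOV, 70.1 in F326 ROV, 54.3 in F361, 128 in F319 ROV and 210 in F318 ROV. In libraries 8 to 11 it was 52.8 CPM in F339 ROV, 49.9 in F318 LOV, 101 in F319 uterus and 59.5 in F333 uterus. The ranges overlapped, and the log2 difference of -1.27 ± 0.33 (adjusted p = 0.00573) was the only one of the 34 past the threshold in this direction. Within libraries 1 to 7 its slope on Myc was 0.35 ± 0.15 (unadjusted p = 0.045, adjusted p = 0.240) and 0.17 without F361, and over all lines -0.20 ± 0.16. Wdr43, of the same processome, rose (0.73 ± 0.28, adjusted p = 0.0429), a call lost when any 1 of 6 lines was left out (F326 ROV, F361, F319 ROV, F318 LOV or either uterus line), whereas for Noc4l the difference was 0.20 ± 0.22 (adjusted p = 0.458) and the slope within libraries 1 to 7 was 0.22 ± 0.13.

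**Figure D3:**
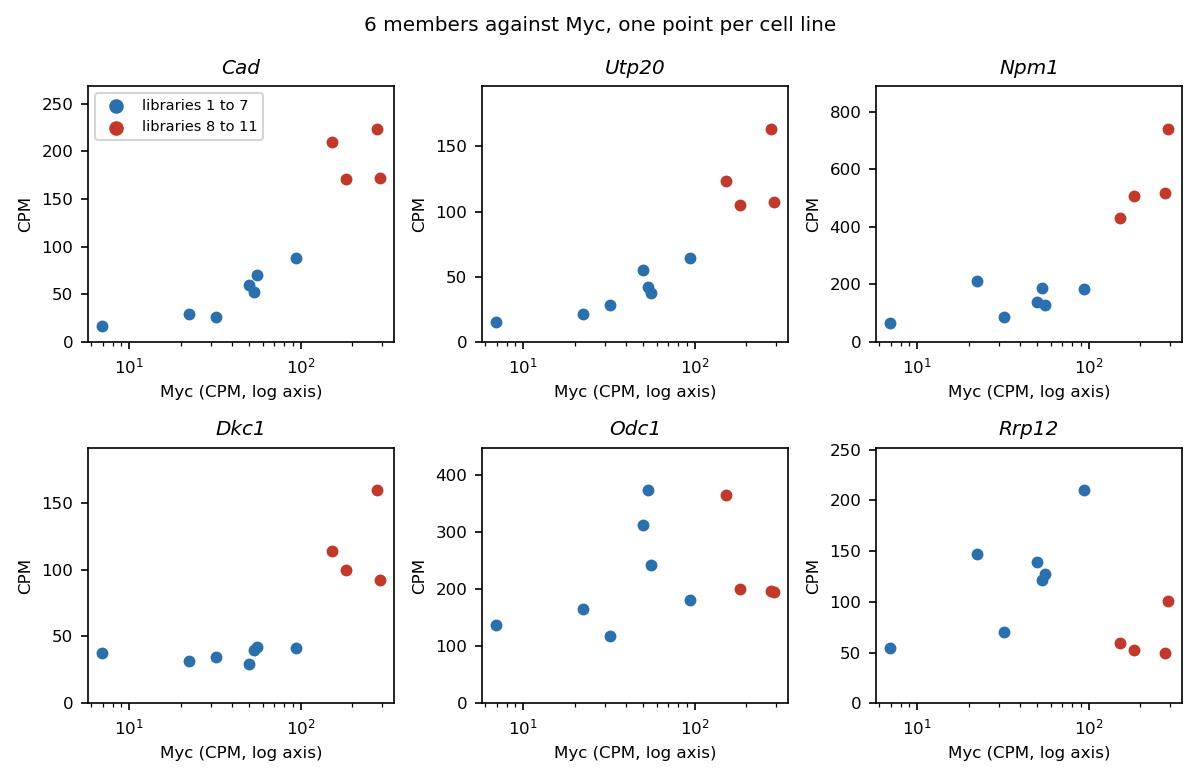
CPM of 6 of the 34 genes (vertical axes, from 0) against Myc CPM (horizontal log axes), one point per line, with libraries 1 to 7 in blue and 8 to 11 in red. For Cad, Utp20, Npm1 and Dkc1 the red points lie above all blue ones, the lowest blue point of Cad and Utp20 is F361 and the highest F318 ROV, for Odc1 the sets overlap, and for Rrp12 the highest blue point is at 210 CPM and the red points lie at 49.9 to 101 CPM.

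Of the 6 large subunit assembly genes, Bop1, Wdr12 and Nop16 were higher in libraries 8 to 11, beside 28.6% of all genes. Bop1, Pes1 and Wdr12 form 1 complex. Wdr12 was 23.2 to 32.5 CPM (median 29.1) in libraries 1 to 7 and 83.3, 75.5, 37.9 and 47.4 CPM in F319 uterus, F318 LOV, F339 ROV and F333 uterus, a difference of 0.74 ± 0.22 (adjusted p = 0.0136). Its slope within libraries 1 to 7, -0.14 ± 0.09, was the lowest of the 34, with F361 at 30.9 CPM near the top of that range. Bop1 rose by 0.71 ± 0.19 (adjusted p = 0.00697) with a slope of 0.22 ± 0.09.

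Pes1, the third protein of the complex, was 48.0 to 127 CPM (median 93.8) in libraries 1 to 7 and 176, 138, 125 and 118 CPM in F319 uterus, F318 LOV, F339 ROV and F333 uterus. The sets overlapped, and the difference was 0.24 ± 0.24 (adjusted p = 0.408). Whether it differed from that of Bop1 or Wdr12 was not tested. Ppan, a large subunit factor, had the steepest slope of the group within libraries 1 to 7, 0.37 ± 0.11 (edgeR adjusted p = 0.143, DESeq2 0.0327), with 17.3 CPM in F361 and 47.9 in F364 ROV, but F319 uterus, with the most Myc of all lines, was at 51.6 CPM, and the difference between the sets was 0.48 ± 0.27 (adjusted p = 0.138).

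Of the 5 nucleolar proteins with several roles, 4 were higher in libraries 8 to 11, beside 28.6% of all genes. Npm1, nucleophosmin, a histone and ribosome chaperone, ranged from 67.2 to 211 CPM (median 138) in libraries 1 to 7 and stood at 507 CPM in F339 ROV, 519 in F318 LOV, 741 in F319 uterus and 431 in F333 uterus. Its difference of 1.57 ± 0.29 (adjusted p = 0.000811) was the largest of the 5. Inside libraries 1 to 7 its highest value was in the F326 splenic tumor line, which had the second lowest Myc, and its slope was 0.22 ± 0.19 and, without F361, -0.13. Ncl, nucleolin, had the highest CPM of the list; it was 320 to 793 CPM (median 633) and then 1378, 1792, 896 and 1130 CPM in F319 uterus, F318 LOV, F339 ROV and F333 uterus, a difference of 0.86 ± 0.29 (adjusted p = 0.0221) with the lowest slope of this group within libraries 1 to 7, 0.20 ± 0.16.

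Ddx21, an RNA helicase of the nucleolus, had a slope within libraries 1 to 7 of 0.48 ± 0.18 (adjusted p = 0.194), and 0.28 without F361. It was 60.7 CPM in F361, 80.2 in F326 ROV, 186 at the median and 281 in F318 ROV, and 466, 512, 325 and 484 CPM in F319 uterus, F318 LOV, F339 ROV and F333 uterus. Mybbp1a, which binds Myb and takes part in rRNA processing, rose by 0.83 ± 0.27 (adjusted p = 0.0193). Gnl3, nucleostemin, a GTPase of proliferating cells, was 34.5 to 108 CPM in libraries 1 to 7 and from 94.2 to 153 CPM in 8 to 11, and its difference of 0.28 ± 0.33 was not past the threshold (adjusted p = 0.492).

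**Figure D4:**
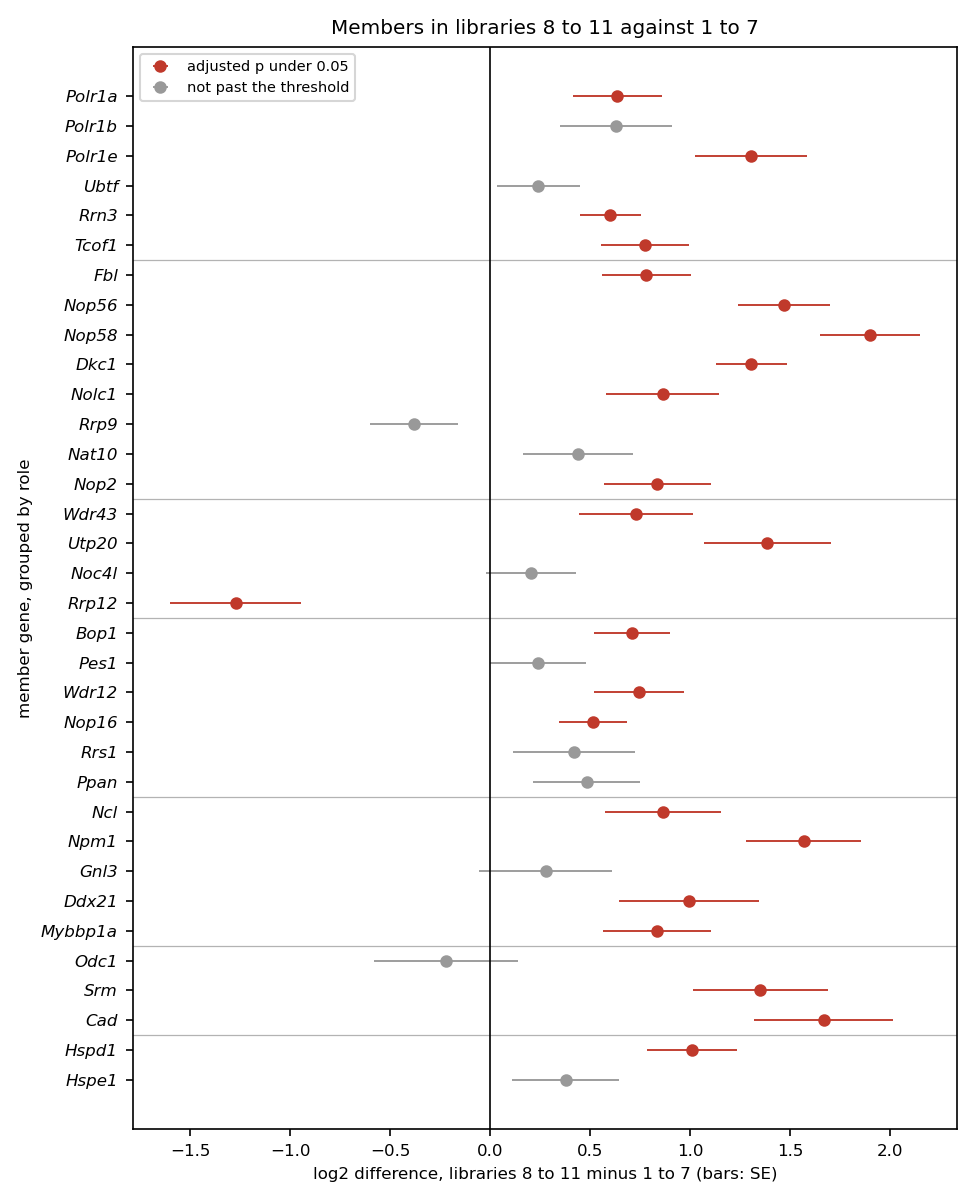
Log2 difference between libraries 8 to 11 and 1 to 7 for each of the 34 genes (rows, grouped by role), with bars of 1 SE; red points passed the edgeR test at an adjusted p under 0.05 and grey points did not. Red points lie to the right of 0 for 22 genes, up to 1.90 for Nop58, and to the left for Rrp12 at -1.27.

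Nucleotide and polyamine synthesis were represented by 3 genes, of which Cad and Srm were higher in libraries 8 to 11 (28.6% of all genes). Cad, the enzyme of the first steps of pyrimidine synthesis, was 17.1 CPM in F361, 26.0 in F326 ROV, 29.1 in the F326 splenic tumor line, 52.3 in F364 ROV, 60.1 in F364 LOV, 70.6 in F319 ROV and 88.5 in F318 ROV. In libraries 8 to 11 it was 171 CPM in F339 ROV, 224 in F318 LOV, 172 in F319 uterus and 210 in F333 uterus. This 13.1-fold range was the widest of the 34. Its slope was the steepest over all lines, 0.64 ± 0.08 (adjusted p = 0.000146), with the set term, 0.54 ± 0.12 (adjusted p = 0.0531), and within libraries 1 to 7, 0.59 ± 0.11 (edgeR adjusted p = 0.0557, DESeq2 0.000285), and it was 0.75 without F361. The difference between the sets was 1.67 ± 0.35 (adjusted p = 0.00162).

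Odc1, the rate-limiting enzyme of polyamine synthesis and a textbook Myc target, was 118 to 374 CPM (median 181) in libraries 1 to 7, highest in F364 ROV, and 194, 197, 200 and 365 CPM in F319 uterus, F318 LOV, F339 ROV and F333 uterus. The sets overlapped, with a difference of -0.22 ± 0.36 (adjusted p = 0.615) and a slope over all lines of -0.004 ± 0.13. The slope within libraries 1 to 7 was 0.25 ± 0.20 (adjusted p = 0.522), and 0.26 without F361. Srm, spermidine synthase, the next enzyme of that pathway, rose by 1.35 ± 0.34 (adjusted p = 0.00492) and was 28.4 to 113 CPM in libraries 1 to 7 and from 133 to 317.7 CPM in 8 to 11.

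Hspd1 and Hspe1 encode the chaperonin of the mitochondrial matrix and its lid, and lie head to head on chromosome 1 with annotated ends that overlap on opposite strands. Hspd1 was 155 to 256 CPM (median 203) in libraries 1 to 7 and 558, 812, 332 and 390 CPM in F319 uterus, F318 LOV, F339 ROV and F333 uterus, a difference of 1.01 ± 0.22 (adjusted p = 0.00248). Hspe1 was 42.0 to 98.9 CPM (median 50.8), highest in the F326 splenic tumor line, and 108, 133, 74.5 and 71.3 CPM in the same lines, with a difference of 0.38 ± 0.27 (adjusted p = 0.243). Within libraries 1 to 7 their slopes on Myc were 0.04 ± 0.08 and -0.08 ± 0.17 (0.12 and -0.45 without F361), neither past the threshold, and by library totals the Spearman rho with Myc over the 7 lines was 0.75 and 0.14. The annotation names 5 pseudogenes of Hspd1 and 6 of Hspe1, so that reads could have been split between copies, and strand and multi-mapping settings of the counting were not given.

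**Figure D5:**
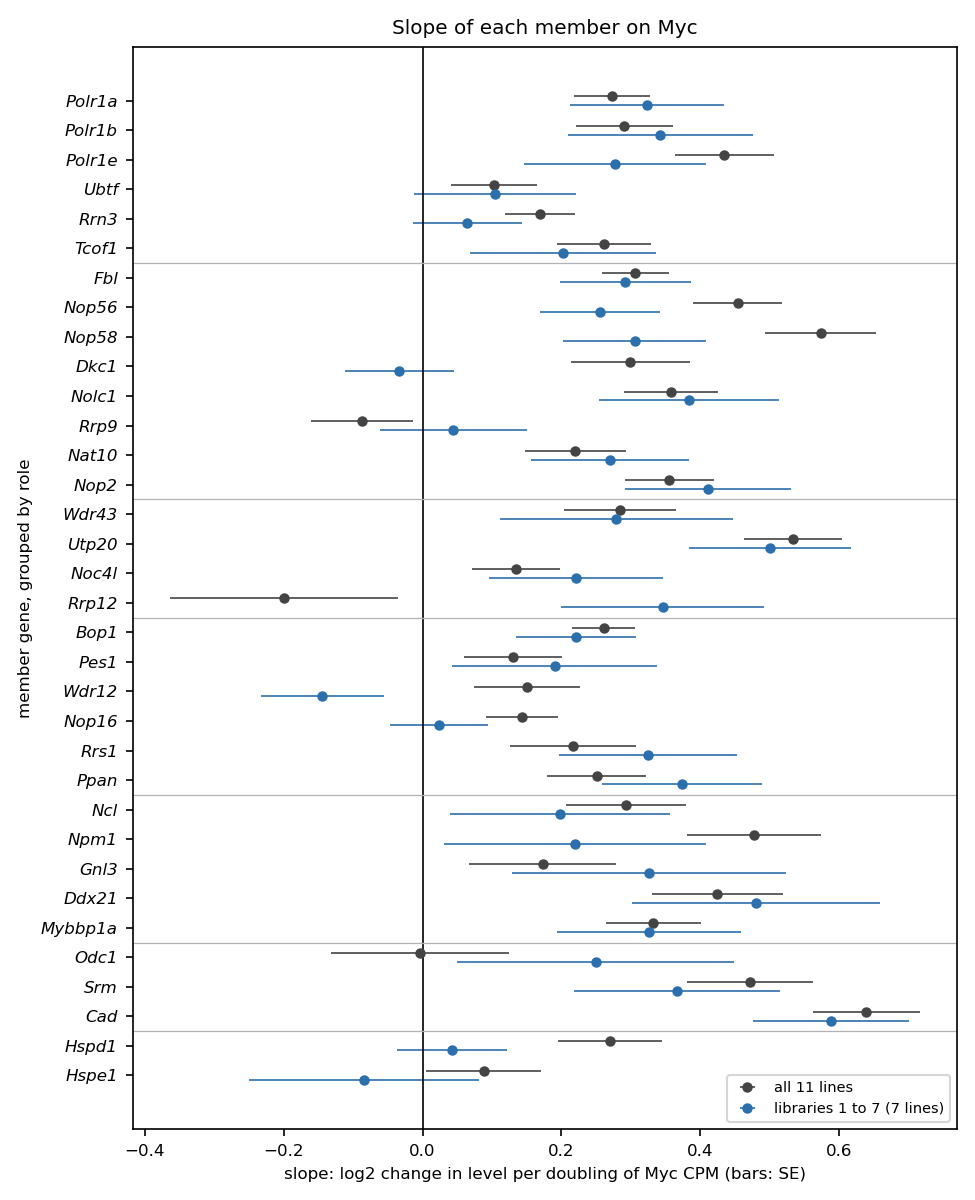
Fitted slope of each of the 34 genes on Myc, as log2 level per log2 unit of Myc CPM, over all 11 lines (dark) and within libraries 1 to 7 (blue), with bars of 1 SE. For Cad and Utp20 both slopes exceed 0.45, for Dkc1, Wdr12 and Hspd1 the slope within libraries 1 to 7 is near or below 0 while that over all lines is above it, and for Rrp12 the reverse holds.

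Other genes of the same pathway were taken from lists written by name. Of 129 further ribosome biogenesis genes tested, 48 were higher and 6 lower in libraries 8 to 11 (median log2 difference 0.39), 56 rose and 5 fell with Myc over all lines (median slope 0.14), and 0 passed within libraries 1 to 7 (20, or 15.5%, with an unadjusted p under 0.05, beside 20% of all genes). As shares these were 37.2% higher and 4.65% lower, beside 28.6% and 29.9% of all genes, and 43.4% rising and 3.88% falling, beside 26.1% and 24.9%. Heatr1, a processome scaffold, had the steepest slope of these within libraries 1 to 7, 0.55 ± 0.11 (adjusted p = 0.0665). Of 87 ribosomal protein genes, the parts of the finished ribosome, 7 (8.05%) were higher and 10 (11.5%) lower in libraries 8 to 11, both below the 28.6% and 29.9% of all genes, with a median difference of 0.07, close to the 0.03 of all genes, and they summed to 10917 to 22004 CPM in libraries 1 to 7 and from 16206 to 19462 CPM in 8 to 11. Whether these lists differ from the 34 genes was not tested.

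Of 32 other genes of nucleotide and polyamine synthesis, 16 (50%) were higher and 8 (25%) lower in libraries 8 to 11, beside 28.6% and 29.9% of all genes. Rrm2, a subunit of ribonucleotide reductase, was higher by 3.41 ± 0.63 (adjusted p = 0.000824) and Tyms, thymidylate synthase, by 2.13 ± 0.56 (adjusted p = 0.00625), and Tyms was the 1 gene of this list that also rose with Myc within libraries 1 to 7 (slope 1.13 ± 0.19, adjusted p = 0.0414). Smox, spermine oxidase, fell by 3.38 on the log2 scale (SE 0.87, adjusted p = 0.00579). Of 9 other mitochondrial chaperones and proteases, 0 were higher and 6 (66.7%) lower, beside 29.9% of all genes, with a median of -0.99, on the opposite side of 0 from Hspd1. The 21 proliferation genes, Rrm2 and Tyms among them, were all higher in libraries 8 to 11 (median 2.13; summed 3085 to 3444 CPM against 127 to 1041 CPM), and 10 of them (47.6%, beside 0.988% of all genes) rose with Myc within libraries 1 to 7. The part of proliferation in the members' differences was not tested.

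Comparison of the 2 uterus with the 7 ovary lines found 0 of the 34 past the threshold (background 0% of 17446 genes by edgeR). At an unadjusted p under 0.05 there was 1, Nop16, a large subunit factor (log2 difference 0.63 ± 0.25), beside 2308 of all genes, and DESeq2 was past the threshold for 0 of the 34 and for 7.43% of genes. The median difference was 0.50, with 31 of the 34 higher in the uterus lines and Npm1 the highest at 1.12 ± 0.56. Both uterus lines were in libraries 8 to 11. With a set term the median was 0.03 with 19 above 0, and within libraries 8 to 11, where 2 uterus lines met 2 ovary lines, it was -0.02 with 16 above 0. When the sets were compared among ovary lines alone, 2 against 5, 8 of the 34 were higher, a share near the 18.6% of all genes. These were Nop58, Npm1, Dkc1, Nop56, Cad, Polr1e, Utp20 and Hspd1. Rrp12 was lower, beside 3666 of 16610 genes. The median difference was 0.60 for the 34 and -0.01 for all genes.

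Pairs of lines from 1 mouse had 1 library each and are given without a test. F318 and F364 paired both ovaries, F319 an ovary with the uterus and F326 an ovary with the splenic tumor. In mouse F318, where Myc was 93.6 CPM in ROV (library 7) and 280 in LOV (library 9), 33 of the 34 genes were higher in LOV, by a median log2(CPM + 1) difference of 0.85, against 0.19 for all genes. Rrp12 was the exception, at -2.05. In mouse F319, with Myc at 55.3 CPM in ROV and 291 in the uterus line, 31 were higher in the uterus line by a median of 1.12 (0.38 for all genes), up to 2.51 for Npm1.

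The pairs inside libraries 1 to 7 had closer Myc levels. In F364, with Myc at 53.3 CPM in ROV and 50.2 in LOV, 13 of the 34 were higher and 21 lower in LOV, with a median of -0.04. In F326, Myc was higher in ROV than in the splenic tumor line (31.8 against 22.2 CPM), yet 23 of the 34 were lower in ROV, with a median of -0.35, down to -1.49 for Gnl3. This pair went against the direction of the slope.

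Per length of exon, the members differed widely in level. Median CPM per kilobase over the 11 lines was highest for Hspd1 (79.8), Npm1 (70.2) and Ncl (69.1) and lowest for Polr1e (2.99) and Wdr12 (2.59). The spread of the 34 between lines was near that of other genes. The median coefficient of variation was 49.2% for the 34 and 46.9% for 8781 genes of the same range of level over all lines, 32.8% and 29.5% within libraries 1 to 7, and 25.4% and 24.8% within libraries 8 to 11.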

How the data were processed

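RNA sequencing of 11 cell lines was analysed. Per the study's methods and the labels, the authors aligned paired-end polyA reads to GRCm38 with RNA STAR, removed duplicates with SAMtools RmDup and counted reads per gene with featureCounts; the deposited values are raw counts. Strand and multi-mapping settings were not given in the sources used here. Removing duplicates can lower the count of the most abundant genes.

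Counts were tested with edgeR 4.0.16 (R 4.3.3; TMM, filterByExpr, quasi-likelihood, Benjamini-Hochberg adjusted p under 0.05 over all genes tested), as a slope on log2 Myc CPM or a group difference. Alternatives were DESeq2 1.42.0 (size factors; Wald test), no filter, removal of the muscle fiber genes, each line left out, limma 3.58.1 voom with mouse as a random block, edgeR with mouse as a fixed block (added after seeing the data), and Myc CPM from TMM sizes. The code was tested on simulated data. CPM used library totals; 3 counts corresponded to 0.111 to 0.221 CPM. All 34 genes passed each filter. Figures used matplotlib 3.10.9.

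Members and lists were chosen with earlier results of these data known. Within each role group, genes with the highest and lowest slope within libraries 1 to 7 and the largest and smallest set difference were named; others mark a place in a range or an exception. Gene positions and pseudogene names came from GENCODE, and promoter windows from RefSeq.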

Additional observations from a re-analysis of the deposited data

Results flagged for a closer look

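Each of the 34 genes, Myc and the summed genes were checked for a line far from the rest in the 7 ovary lines, in libraries 1 to 7 and in libraries 8 to 11, by the gap to the nearest line over the whole range (Dixon's 95% critical value). Of 108 such checks 8 passed. Chance passes about 1 in 20 of independent checks, but these checks shared lines and were not independent. The ovary lines also came from both library sets.

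Of these, 6 were high values of the F318 LOV line among the ovary lines: Nat10 at 121 CPM (next 63.3), Wdr12 at 75.5 (next 37.9), Ncl at 1792 (next 896), Srm at 317.7 (next 133), Hspd1 at 812 (next 332) and Hspe1 at 133 (next 74.5). F318 LOV also had the most Myc of the ovary lines, 280 CPM. Hspe1 at 98.9 CPM in the F326 splenic tumor line stood apart within libraries 1 to 7 (next 60.6). Odc1 at 365 CPM in F333 uterus stood apart within libraries 8 to 11 (next 200.3).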

How the results depend on the processing

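The labels give no replicate numbers, but mouse numbers pair 8 of the 11 lines. With mouse as a random block in limma, 24 of the 34 genes were called over all lines, beside 8765 of 16533 genes. Between the sets 23 were called, beside 9408 of 15954 genes, and 0 in the other fits. Mouse as a fixed replicate block in edgeR was an alternative chosen after seeing the data. It gave 0 over all lines (1036 of 18554 genes), 7 between the sets (2777 of 18554) and 0 in the other fits. The median slope was then -0.25 with the set term and -0.78 within libraries 1 to 7. That fit leaves few residual degrees of freedom and more genes passed its filter; the cause was not tested. All alternatives other than this block and leaving out a line gave 23 to 25 over all lines, beside 8236 to 9690 genes. When 1 line was left out the count was 21 to 25, beside 6963 to 8600 genes. Leaving out F361 lost Nat10, Ppan and Wdr43 and gave 22 rising and Rrp12 falling. Between the sets the count was 23 under each scaling and filter and each other test tried, beside 9315 to 9858 genes. It was 16 to 24 when a line was left out, beside 8526 to 9311 genes. Without F319 uterus it was 16, with Wdr12, Polr1a, Ddx21, Mybbp1a, Nop16, Wdr43 and Nolc1 lost. Without F318 LOV, Ncl, Polr1a, Ddx21 and Wdr43 were lost, and without F333 uterus, Ddx21 and Wdr43. Among ovary lines only the count was 9, beside 6757 of 16610 genes. With the set term, DESeq2 called 10, Myc CPM from TMM sizes gave 1 (Cad), and leaving out a line gave 0 to 2. Within libraries 1 to 7, DESeq2 called 4, and leaving out a line gave 0 to 1. The uterus comparison gave 0 throughout. Its median difference turned from 0.50 to -0.024 within libraries 8 to 11. With mouse as a fixed block, where it rests on mouse F319 alone, it was 0.87, with 29 of the 34 above 0.

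The mean log2 level of the 34 genes was 1.10 higher in libraries 8 to 11 by library totals, 0.73 by TMM and 0.90 without the muscle fiber genes. The slope of Odc1 over all lines, -0.004, was 0.017 with no filter, 0.0070 without muscle fiber genes, 0.0053 in limma and 0.027 with Myc from TMM sizes, and lay between -0.13 and 0.056 when a line was left out. Within libraries 1 to 7, leaving out a line moved the slope of Ubtf between -0.078 and 0.15, Tcof1 between -0.020 and 0.27, Rrp9 between -0.11 and 0.099, Pes1 between -0.097 and 0.29, Npm1 between -0.13 and 0.34 and Dkc1 between -0.054 and 0.039, with the change of sign when F361 was left out, and that of Hspe1 between -0.45 and 0.042, with the change of sign when the F326 splenic tumor line was left out. With the mouse block, the slopes that changed sign within libraries 1 to 7 were Polr1b -0.88, Polr1e -1.38, Ubtf -1.26, Tcof1 -1.82, Nop58 -0.92, Dkc1 0.21, Rrp9 -1.45, Nat10 -0.22, Nop2 -0.68, Wdr43 -2.74, Noc4l -0.37, Rrp12 -2.23, Bop1 -0.32, Pes1 -2.003, Nop16 -0.062, Rrs1 -0.058, Ppan -0.47, Ncl -2.25, Npm1 -2.46, Gnl3 -3.03, Ddx21 -2.45, Mybbp1a -1.01, Odc1 -0.999, Srm -2.16 and Cad -0.53; with the set term that of Cad became -0.37, and over all lines that of Gnl3 became -0.036. Cad was not alone with the set term, where 31 of the 34 slopes were above 0 without the block and 11 with it. The causes were not tested. Single libraries per line and 1 gap in Myc limit the slopes, since no line lay between 93.6 and 153 CPM.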
